A study of Homo sapiens with 8 samples.

Results

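The regions described here are the p63-bound regions of human chromosome 3, divided into the short arm (3p) and the long arm (3q). All distinct regions that the p63 lists of 2 squamous carcinoma lines place on chromosome 3 were taken, and a region was assigned to 3p if its midpoint lay below position 91000000 in build hg19. This gave 945 regions of 15267 on all chromosomes, 286 on 3p and 659 on 3q. The arms were chosen by the share of each list's regions that lies on them, which had differed between the lines in opposite directions. The counts per arm and class are therefore a description and carry no test.

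CAL27 is an established line from a squamous carcinoma of the tongue and SCC13 an established line from a squamous carcinoma of the skin. The labels give both as wild type and untreated. Each line had 2 p63 immunoprecipitation samples and 2 samples titled none, and 1 list of regions per line stands for both p63 samples. CAL27 was grown with serum and SCC13 in a serum-free keratinocyte medium with EGF, so line and medium cannot be told apart. No depth, score, height or summit accompanies a region, and no spread between replicates can be given. Intervals printed here are exact Clopper-Pearson intervals at 95%, which cover counting error only and treat regions as independent.

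The transcription factor p63 belongs to the p53 family and maintains the basal layer of stratified epithelia; most of its sites lie in enhancers, away from gene starts. Chromosome 3 carries TP63 itself, in band 3q28, together with SOX2, another transcription factor of the squamous lineage, in 3q26.33. The short arm carries, among others, COL7A1, which encodes the collagen of the anchoring fibrils below the epidermis, in 3p21.31. Loss of 3p and gain of 3q recur in squamous carcinomas as a class; the copy number of these 2 lines was not analysed here.

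A region was called shared if it overlapped a region of the other list by at least 1 bp. All shared regions had the same start and end in both lists. The short arm held 91 shared regions, 140 listed in CAL27 only and 55 listed in SCC13 only. The long arm held 173 shared, 453 CAL27-only and 33 SCC13-only regions. The short arm, with fewer regions in all, thus held more of the SCC13-only regions. These made up 19.2% of the distinct regions of 3p (14.8 to 24.3) and 5.01% of those of 3q (3.47 to 6.96), against 9.42% over all chromosomes. CAL27-only regions made up 49.0% on 3p (43.0 to 54.9) and 68.7% on 3q (65.0 to 72.3), against 61.4% over all chromosomes. Per SCC13-only region there were 2.55 CAL27-only regions on 3p and 13.7 on 3q, against 6.52 over all chromosomes.

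The density of the 3 classes changed by different amounts between the arms. CAL27-only regions numbered 1.54 per Mb on 3p and 4.23 per Mb on 3q, 2.75 times as many. Shared regions numbered 1.00 and 1.62 per Mb, 1.62 times as many on 3q. SCC13-only regions went the other way, with 0.604 per Mb on 3p and 0.308 per Mb on 3q. Counted per list, CAL27 had 231 regions on 3p and 626 on 3q, and its density on 3q was 2.30 times that on 3p. SCC13 had 146 and 206, a density 1.20 times as high. The arms thus differed more in the CAL27 list than in the SCC13 list.

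The shared percentage moved in opposite directions in the 2 lists. Both percentages count the same shared regions, so their ratio on an arm follows from the counts per list that chose the arms. The opposite movement and the ranks thus partly restate that choice. The same holds for the shared percentages by part, width and band given below. Of CAL27 regions, 39.4% on 3p (33.0 to 46.0) and 27.6% on 3q (24.2 to 31.3) were also listed in SCC13, against 32.2% over all chromosomes. Of SCC13 regions, 62.3% on 3p (53.9 to 70.2) and 84.0% on 3q (78.2 to 88.7) were also listed in CAL27, against 75.6% over all chromosomes. Among 41 arms with at least 20 regions, 3p ranked 4 from the highest by the CAL27 percentage and 39 by the SCC13 percentage. Arm 3q ranked 37 and 3. Among the 18 chromosomes with such counts on both arms, the 21.7 points between the arms in the SCC13 percentage were the largest difference. The 11.8 points in the CAL27 percentage came second to the 14.5 points of chromosome 18, where the long arm had the higher value. Chromosome 8 had the next largest difference in the CAL27 list, 9.05 points, with the short arm higher as on chromosome 3.

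**Figure D1:**
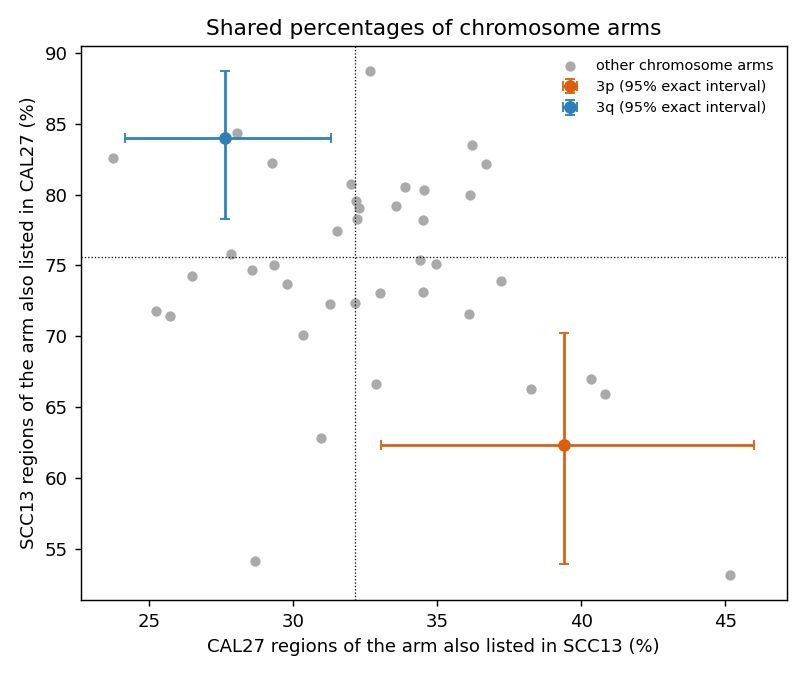
Each point is a chromosome arm with at least 20 regions, placed by the percentage of its CAL27 regions also in the SCC13 list (horizontal axis) and of its SCC13 regions also in the CAL27 list (vertical axis); bars are 95% exact intervals and dotted lines the values over all chromosomes, 32.2% and 75.6%. Arm 3p lies at the lower right, at 39.4% and 62.3%, and arm 3q at the upper left, at 27.6% and 84.0%.

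Bins of 5 Mb were laid from the end of 3p, and the bin across the arm boundary was divided there, which gave 19 bins on 3p and 22 on 3q. No bin was empty. On 3p a bin held 3 to 37 distinct regions, with a median of 14. On 3q it held 3 to 51, with a median of 28.5. In 16 of the 19 bins of 3p the SCC13-only percentage was above the 9.42% of all chromosomes, compared with 3 of the 22 bins of 3q. This partly follows from the arm percentages, 19.2% on 3p and 5.01% on 3q, which are tied to the choice of the arms. The share of such bins over all chromosomes was not counted, and in bins with few regions the percentage rests on small counts. How evenly the excess of 3p was spread along the arm was therefore not shown. Among bins with at least 10 regions, the SCC13-only percentage ran from 0 to 33.3% on 3p, with a median of 17.2% over 14 bins. On 3q it ran from 0 to 13.6%, with a median of 4.55% over 21 bins.

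SCC13-only regions outnumbered CAL27-only regions in 2 bins of 3p and in none of 3q. Over all chromosomes this was so in 28 of 594 bins with a region of either class, or 4.71%, so the 2 of 19 bins on 3p are a small count. Both bins adjoin, from 75 to 85 Mb in bands 3p12.3 to 3p12.1. Together they held 4 shared, 2 CAL27-only and 6 SCC13-only regions, so that this stretch had 10 regions in SCC13 and 6 in CAL27. They were also among the emptiest of the chromosome, with 5 and 7 distinct regions. The longest stretch of 3p without a CAL27-only region, 7.52 Mb at 75098198 to 82621811, covers most of it and held 3 shared and 5 SCC13-only regions.

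**Figure D2:**
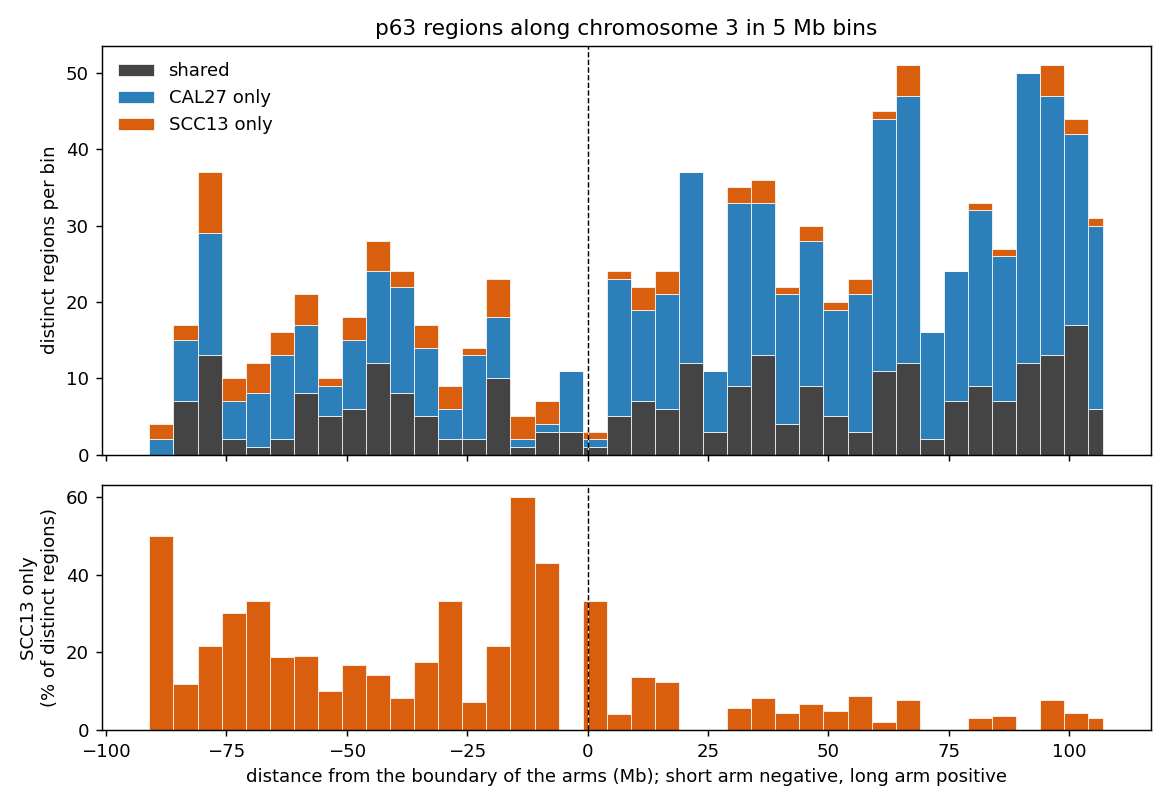
Upper panel, number of distinct regions in each 5 Mb bin, divided into shared, CAL27-only and SCC13-only; lower panel, SCC13-only regions as a percentage of the distinct regions of the bin. The horizontal axis gives the distance from the arm boundary in Mb; the 19 bins of the short arm hold 3 to 37 regions and the 22 bins of the long arm 3 to 51, and the SCC13-only percentage is above 9.42% in 16 bins of the short arm and 3 of the long arm.

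The fullest bin of 3p, at 10 to 15 Mb in bands 3p25.3 to 3p25.1, led the arm in each of the classes. It held 13 shared, 16 CAL27-only and 8 SCC13-only regions. The next bins by shared regions were 45 to 50 Mb, within 3p21.31, with 12, and 70 to 75 Mb, in 3p13 and 3p12.3, with 10. The next by CAL27-only regions were 50 to 55 Mb with 14 and 45 to 50 Mb with 12. The bin at 70 to 75 Mb was second by SCC13-only regions, with 5, and 3 bins at 20 to 25, 30 to 35 and 45 to 50 Mb held 4 each. At 65 to 70 Mb, in 3p14.1 and 3p13, CAL27-only regions prevailed as on the long arm, with 11 against 2 shared and 1 SCC13-only. That bin contains the longest run of consecutive CAL27-only regions on 3p, 11 regions at 65887887 to 69134722.

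On 3q the regions grew denser toward the end of the arm. With the arm divided into 3 equal lengths, the first, nearest the centromere, held 167 distinct regions, the second 230 and the third 262. SCC13-only regions did not follow, with 12, 12 and 9. The fullest bins by CAL27-only regions were 180 to 185 Mb, in bands 3q26.33 to 3q27.2, with 38, 155 to 160 Mb, in 3q25.31 to 3q25.33, with 35, and 185 to 190 Mb, in 3q27.2 to 3q28, with 34. By shared regions they were 190 to 195 Mb, in 3q28 and 3q29, with 17, and 125 to 130 and 185 to 190 Mb with 13 each. By SCC13-only regions they were 155 to 160 and 185 to 190 Mb with 4 each, followed by 3 bins at 100 to 105, 105 to 110 and 125 to 130 Mb with 3 each. In 5 of the 22 bins of 3q every SCC13 region was shared. Over all chromosomes, 132 of 643 bins held no SCC13-only region, 47 of them with no region at all, so such bins are not particular to 3q. The 5 bins of 3q included 110 to 120 Mb, with 15 SCC13 regions against 48 in CAL27, and 160 to 170 Mb, with 9 against 40. The longest stretch of 3q without an SCC13-only region measured 13.8 Mb, at 108283394 to 122112959, and held 18 shared and 46 CAL27-only regions.

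Within each arm the shared percentage differed less between its 3 parts than their intervals were wide. On 3p, 33.8% (23.2 to 45.7), 43.6% (33.7 to 53.8) and 39.3% (26.5 to 53.2) of CAL27 regions were shared from the telomere to the centromere. On 3q, from the centromere outward, the values were 30.3% (23.2 to 38.2), 25.2% (19.6 to 31.5) and 28.1% (22.6 to 34.0). Of SCC13 regions, 53.2%, 72.1% and 57.9% were shared in the parts of 3p and 79.7%, 82.1% and 88.8% in those of 3q. All 3 parts of 3p lay below all 3 parts of 3q by this measure and above them by the CAL27 percentage.

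Counts were also read in 10 bands that carry genes of epithelial or squamous tumour biology, 5 on each arm. The 5 bands of 3q held 0 to 2 SCC13-only regions among 18 to 62 regions, and the 5 bands of 3p held 2 to 4 among 10 to 32. These bands were named after their values were seen, and other bands went the other way. Band 3p21.2 held 0 SCC13-only regions among 11, while 3q25.32 held 3 among 15 and 3q12.3 held 3 among 13. Band 3q28, the band of TP63, held 36 regions, of which 13 were shared, 21 CAL27-only and 2 SCC13-only. Its widest region was shared, 1954 bp at 190086623 to 190088576, followed by a CAL27-only region of 1664 bp at 190251028 to 190252691. Band 3q26.33, with SOX2, held 22 regions, 6 shared and 16 CAL27-only. Band 3q26.32, with PIK3CA, the catalytic subunit of a PI3-kinase, held 23, of which 6 were shared, 16 CAL27-only and 1 SCC13-only. Band 3q21.1, with CSTA, a protease inhibitor of the cornified envelope, held 18, of which 7 were shared, 10 CAL27-only and 1 SCC13-only. Band 3q29, which carries HES1, a repressor downstream of Notch, held the most regions of any of the 62 bands. It held 62, with 18 shared, 42 CAL27-only and 2 SCC13-only. At 5.72 Mb it is a long band, and its 10.8 regions per Mb lay below the 16.1 of 3q27.1. On 3p the fullest by count was 3p21.31, with COL7A1, which held 32 regions, 14 shared, 14 CAL27-only and 4 SCC13-only. Per Mb it held 5.00, below the 7.74 of 3p25.1. Band 3p24.1, the band of TGFBR2, a receptor of TGF-beta, held 17, of which 3 were shared, 11 CAL27-only and 3 SCC13-only. Band 3p22.1, with CTNNB1, which encodes beta-catenin, held 15, of which 4 were shared, 8 CAL27-only and 3 SCC13-only. Band 3p14.3, which carries WNT5A, a Wnt ligand, held 12, of which 1 was shared, 8 CAL27-only and 3 SCC13-only. Band 3p14.2, the band of the large gene FHIT, held 10, with 5 shared, 3 CAL27-only and 2 SCC13-only. Bands span several Mb and many genes, and no region was assigned to a gene.

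Regions of 3p were narrower than regions of 3q, a property that did not enter the choice of the arms. The median width was 648 bp on 3p (quartiles 531 and 859) and 791 bp on 3q (612 and 1016), against 773 bp over all chromosomes. The order was the same in each class. Shared regions had a median of 828 bp on 3p and 946 bp on 3q, CAL27-only regions 604 and 740 bp, and SCC13-only regions 582 and 705 bp. Over all chromosomes the medians of these classes were 934, 723 and 590 bp. The shared and CAL27-only medians of 3q were thus close to those of all chromosomes, and those of 3p lay below them. The SCC13-only class differed, with 3p close to all chromosomes and 3q above them. By the SCC13-only median, 3p was 14 from the narrowest of 31 arms with at least 20 such regions and 3q was 30. By the CAL27-only median, 3p was 7 from the narrowest of 41 arms and 3q was 27. The range reached from 533 bp on 8p to 800 bp on 17q, so narrow regions were not peculiar to 3p.

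Of the 286 regions of 3p, 2 were 1500 bp or wider, or 0.699% (0.0848 to 2.503), compared with 32 of 659 on 3q, or 4.86% (3.34 to 6.79), and 5.47% over all chromosomes. By this percentage 3p was 3 from the lowest of 41 arms. Arm 10p had 0 of 155, 18q had 1 of 178 and 4q had 3 of 416, so few wide regions were not peculiar to 3p. Both wide regions of 3p were shared, of 1814 bp at 48635389 to 48637202 in 3p21.31 and of 1500 bp at 58859942 to 58861441 in 3p14.2. The third widest, also shared, measured 1451 bp at 52079479 to 52080929 in 3p21.2. On 3q, 20 of the 32 were shared, 10 were CAL27-only and 2 were SCC13-only. The widest was the 3456 bp region at 159480918 to 159484373 in 3q25.33, followed by 2492 bp at 152878228 to 152880719 in 3q25.2 and 2407 bp at 126723971 to 126726377 in 3q21.3.

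**Figure D3:**
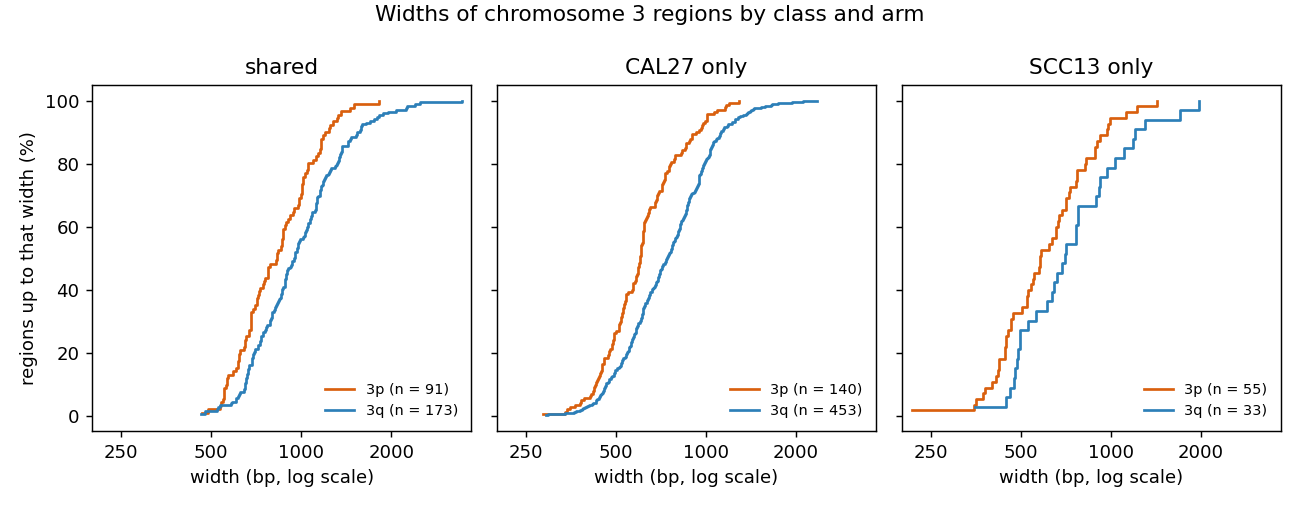
Cumulative percentage of regions (vertical axis) up to a given width in bp (horizontal axis, log scale), for shared, CAL27-only and SCC13-only regions of the short arm (orange) and the long arm (blue). The short arm curve lies to the left, with medians of 828 against 946 bp, 604 against 740 bp and 582 against 705 bp.

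The widest line-only regions were likewise larger on 3q. The CAL27-only regions of 3q reached 2346 bp at 167578423 to 167580768 in 3q26.1, 2108 bp at 138492871 to 138494978 in 3q22.3 and 1945 bp at 183675808 to 183677752 in 3q27.1. On 3p they reached 1293 bp at 71730440 to 71731732 in 3p13, 1198 bp at 37224773 to 37225970 in 3p22.2 and 1171 bp at 32147734 to 32148904 in 3p22.3. The SCC13-only regions of 3q reached 1980 bp at 157283728 to 157285707 in 3q25.32, 1711 bp at 159217185 to 159218895 in 3q25.33 and 1300 bp at 196515088 to 196516387 in 3q29. On 3p they reached 1427 bp at 69343497 to 69344923 in 3p14.1, 1224 bp at 12804069 to 12805292 in 3p25.2 and 1124 bp at 13891176 to 13892299 in 3p25.1. The widest SCC13-only region of 3q lies 34.9 kb, and the second 19.9 kb, from the nearest other region, so neither stands alone on the arm.

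Wider regions were shared more often on both arms, and the arms differed at matched width in the CAL27 list. A shared region has the same start and end in both lists, so its width is not a separate value of each line. How that width was set is not known, so width and sharing may not be independent. Of CAL27 regions narrower than 600 bp, 16.0% were shared on 3p (8.83 to 25.9) and 5.63% on 3q (2.46 to 10.8). From 600 bp to under 1000 bp the values were 44.7% (35.4 to 54.3) and 27.7% (22.9 to 33.0), and from 1000 bp up 27 of 36 (57.8 to 87.9%) were shared on 3p and 46.6% (38.8 to 54.6) on 3q. Over all chromosomes they were 10.9%, 32.5% and 48.9%, so 3p lay above and 3q below at each width. The interval of 3p below 600 bp and both intervals of 3q from 600 bp up included these values. This order is tied to the counts that chose the arms and is no separate support. Of SCC13 regions, 31.0%, 68.9% and 90.0% were shared on 3p in the same order and 42.1%, 85.6% and 91.6% on 3q. Over all chromosomes they were 31.7%, 80.2% and 92.6%, so 3p was close to these below 600 bp and from 1000 bp up. The SCC13 intervals of the arms overlapped in every class. From 600 bp to under 1000 bp they overlapped narrowly, 57.1 to 79.2 on 3p and 77.3 to 91.7 on 3q. In the widest class they overlapped almost wholly, 73.5 to 97.9 on 3p and 83.4 to 96.5 on 3q.

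**Figure D4:**
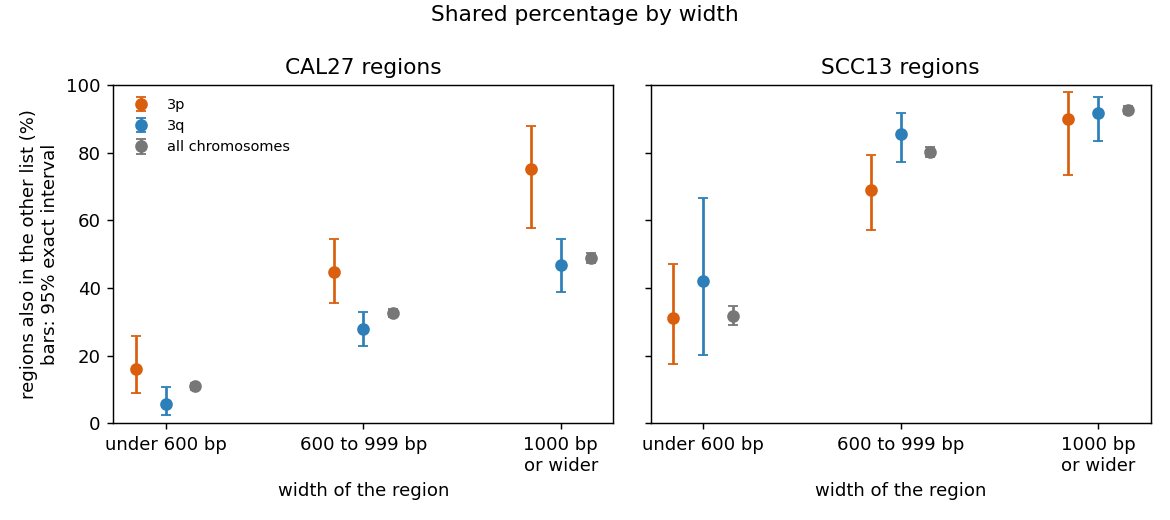
Percentage of CAL27 regions (left) and SCC13 regions (right) also in the other list, in 3 classes of width, for the short arm, the long arm and all chromosomes; bars are 95% exact intervals. In CAL27 the short arm is the highest in every class (16.0%, 44.7% and 27 of 36 regions) and the long arm the lowest (5.63%, 27.7% and 46.6%).

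Regions were also placed relative to Giemsa bands, a stain that leaves gene-rich DNA pale, and shared regions lay in pale bands at nearly the same percentage on both arms. G-negative (pale) bands made up 40.4% of the length of 3p and 40.7% of 3q. They held 63.7% of shared regions on 3p (53.0 to 73.6) and 64.2% on 3q (56.5 to 71.3), against 58.1% over all chromosomes. CAL27-only regions lay in them at 44.3% on 3p (35.9 to 52.9) and 55.4% on 3q (50.7 to 60.1), against 56.8% over all chromosomes. For SCC13-only regions the values were 49.1% (35.4 to 62.9) and 57.6% (39.2 to 74.5). On 3p, 48.3% of the CAL27 regions in pale bands were shared (39.1 to 57.6) and 29.7% of those in other bands (21.4 to 39.2). On 3q these were 30.7% (25.9 to 35.7) and 23.5% (18.5 to 29.1), and over all chromosomes 32.7% and 31.5%. The CAL27 percentage was thus higher on 3p than on 3q in both kinds of band, with overlapping intervals in the other bands.

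Regions of 3p stood farther apart, which largely follows from the lower density of regions on that arm and is no separate property. The median distance between a midpoint and the nearest other was 58.1 kb on 3p (quartiles 19.9 and 166) and 34.0 kb on 3q (11.4 and 79.3). On 3p, SCC13-only regions had the longest median distance, 88.7 kb, against 58.0 kb for shared and 47.4 kb for CAL27-only regions. On 3q the medians were 38.1, 28.7 and 34.9 kb. Of the 55 SCC13-only regions of 3p, 6 had another SCC13-only region as their nearest, or 10.9% (4.11 to 22.2), beside the 19.2% that this class made up of the arm. The longest run of consecutive SCC13-only regions was 3 on 3p, across 2.14 Mb at 79473927 to 81614684, and 2 on 3q. The 19.2% lies within the interval, so the SCC13-only regions of 3p were not shown to cluster or to stand apart. On 3q, 3 of 33 SCC13-only regions had another as their nearest, or 9.09% (1.92 to 24.3), beside 5.01% of the arm. Run lengths were not compared with those that the class shares alone would give. CAL27-only runs reached 12 regions on 3q, at 112981738 to 115928390 and at 154848792 to 156348699. The longest shared run was 6 regions within 98.1 kb on 3q, at 159449761 to 159547810, and includes the widest region of the chromosome.

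Where midpoints of neighbours lay 12.5 kb apart or less, the regions were joined, and groups of at least 3 held 17 regions in 5 groups on 3p, or 5.94% of the arm. On 3q, 57 regions lay in 18 groups, or 8.65%, against 7.43% over all chromosomes. The groups of 3q contained no SCC13-only region, with 16 shared and 41 CAL27-only, and 8 of the 18 had no SCC13 region at all. On the whole of 3q, SCC13-only regions made up 5.01% and CAL27-only regions 68.7%. With so small a share, their absence among 57 regions does not show that SCC13-only regions avoid the groups. Each of the 5 groups of 3p had a shared region, and 3 of them also had an SCC13-only region. The 17 grouped regions of 3p included 3 SCC13-only, beside the 19.2% of that class on the arm. Whether groups differ from their arm in class was not tested. The largest group of the chromosome lay on 3p, 5 regions at 52079479 to 52101576 in 3p21.2, with 2 shared and 3 CAL27-only. The next on 3p, by the shorter span, were 3 regions at 13891176 to 13899855 in 3p25.1 and 3 at 71730440 to 71740104 in 3p13, each with 1 of every class. The largest on 3q held 4 regions each. They lay at 151019564 to 151037384 in 3q25.1 with 1 shared, at 171507533 to 171529926 in 3q26.31 with all 4 CAL27-only, and at 111448716 to 111481037 in 3q13.2 with 3 shared.

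The widest gaps of 3p with no region in either list were 2.91 Mb at 33944381 to 36854669, in 3p22.3 and 3p22.2, and 2.61 Mb at 59640996 to 62246681 within 3p14.2. On 3q they were 2.83 Mb at 93852142 to 96679618, from 3q11.1 to 3q11.2 beside the centromere, and 2.05 Mb at 115928391 to 117981047, in 3q13.31 and 3q13.32. The boundary between the arms lay in a further gap. The last region of 3p, shared and 863 bp wide at 90256270 to 90257132, had its midpoint 0.743 Mb before position 91000000. The first region of 3q, shared and 730 bp wide at 93597072 to 93597801, had its midpoint 2.60 Mb after it, so no region lay near enough for its arm to be in doubt.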

How the data were processed

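Chromatin immunoprecipitation with a p63 antibody was followed by sequencing in CAL27 and SCC13, 2 samples each. For each line the authors deposited 1 list whose 3 columns give the chromosome, start and end of a region and no other measure; per the labels it belongs to both p63 samples. Bowtie2, SAMtools 1.8, MACS2 and build hg19 are named in the submitters' processing notes without roles. The sources used here do not give peak thresholds, depths or the use of the samples titled none, so how peak calling shaped widths and line-only regions is unknown. Positions are printed counted from 1, with the build hg19.

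Distinct rows of both lists were classed by overlap of at least 1 bp and binned by midpoint. Bands and chromosome lengths came from the hg19 table of circlize 0.4.16, whose arm boundary is the same position 91000000. The reference gene table is of GRCh38; it was used only to check that the 10 genes looked up lie on chromosome 3. Their bands are textbook knowledge. No genome of hg19 was used, so no sequence, motif or gene position is given. Regions were named by a rule: the 3 widest per arm and class, the fullest bins and groups, the widest gaps and the regions beside the boundary; bands, runs and stretches were named after their values were seen. The members and lists were chosen with earlier results of these data known. No test was made, since the arms were chosen on these lists and each line has 1 list. Calculations used Python 3.11.15, numpy 2.4.6, pandas 2.3.3, scipy 1.17.1 and matplotlib 3.10.9, and functions were tested on simulated lists. Alternatives were other overlap rules, wider regions, neighbours counted once, other bins, bins left out, centromeric bands left out and other joining distances.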

Additional observations from a re-analysis of the deposited data

How the results depend on the processing

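No paired analysis was possible because each line has 1 list for both replicates. Neither replicate could therefore be left out, and without scores no stricter threshold was run. The CAL27 shared percentage was higher on 3p and the SCC13 one higher on 3q under all 5 alternatives tried for each. The SCC13 to CAL27 ratio of shares was higher on 3p under all 4. The arms were chosen by this ratio and the percentages are tied to it, so these directions are no separate support. Identical coordinates make the overlap rules equal, so those among the 5 had to return the main values and only the other alternatives could differ. With each list reduced to the regions above its median width, the shared percentage was 59.2% on 3p and 33.1% on 3q in CAL27, and 80.8% and 90.5% in SCC13. The ratio of shares was then 1.72 on 3p and 0.859 on 3q, so on 3q it lay closer to 1 than the main value. Without shared regions the ratio of shares moved from 1.48 to 2.56 on 3p and from 0.773 to 0.475 on 3q, as leaving out regions that add to both lists must do. No single 5 Mb bin decided these values: with each left out in turn, the CAL27 percentage ran from 38.0 to 40.8% on 3p and from 26.7 to 28.1% on 3q. Bins of 3p with more SCC13-only than CAL27-only regions numbered 5 of 36 at 2.5 Mb and 0 of 10 at 10 Mb, in place of 2 of 19; on 3q they numbered 0 at each size. Groups numbered 1 on 3p and 6 on 3q with a joining distance of 5 kb, and 11 and 35 with 25 kb. Since no depth is known, absence from a list does not show that p63 was not bound.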
